A study of Homo sapiens with 4 samples.

Results

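The nuclear-encoded subunits of the respiratory chain were examined in SUM159 cells with and without NOS2KO. The set held 89 of the 57500 genes in the count tables and was defined by gene names, with earlier results of these data known. It took protein-coding genes whose symbols begin with NDUF, SDH, UQCR, COX4 to COX8 or ATP5 in the subunit pattern, plus CYC1 and CYCS. By complex there were 37 genes for complex I, 4 for complex II, 11 for complex III with cytochrome c, 17 for complex IV and 20 for ATP synthase. NDUFA4 carries a complex I name and was counted there, although it is known to sit in complex IV. A few genes that match the pattern are not subunits in the strict sense, among them ATP5IF1, an inhibitor of ATP synthase, ATP5S, a coupling factor, and COX7A2L, which joins complexes III and IV into supercomplexes.

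SUM159 is a triple-negative breast cancer line of the metaplastic type, and NOS2 encodes inducible nitric oxide synthase (iNOS). RNA was sequenced from the parental cells (1 library) and from NOS2KO clones 1, 5 and 6 (1 library each), so that the group of 3 was set against a single parental library. All cells were grown in DMEM with fetal bovine serum, and the knockout cells had received a NOS2 double nickase plasmid and had been picked after puromycin selection by their iNOS protein and nitrite and nitrate output. Each NOS2KO library is 1 clone, the labels name no plasmid or selected clone for the parental cells, and the effects of the knockout, of selection and of growing from a clone cannot be told apart.

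The count tables held 90467395 to 122171287 counts on genes per library, and a floor of 3 counts corresponded to 0.0246 to 0.0332 CPM, the count after scaling every library to the same total. The targeted gene, NOS2, was at 2 counts in parental cells and at 3, 18 and 1 counts in the clones in the order 1, 5 and 6, too few to check the labels, and the higher value is why clone 5 is called the library labelled clone 5. The mesenchymal marker VIM was at 1655 CPM in the parental library and at 2890 to 3855 CPM in the clones. The epithelial genes CDH1 and EPCAM and the receptor genes ESR1 and PGR were under 1 CPM in every library, whereas the basal keratin KRT5 was at 0.144 CPM in the parental library and at 5.75, 1.07 and 0.0507 CPM in clones 1, 5 and 6. KRT18 lay between 303 and 467 CPM and ERBB2 between 48.3 and 106 CPM. Of 8 markers of other cell types, ALB, CD3E, CD68 and HBB were under 1 CPM everywhere, MYH1 was at 0.509 to 1.41 CPM and CDH5 reached 3.49 CPM in the library labelled clone 5. PECAM1 lay between 7.06 and 16.1 CPM, and PTPRC was at 4.45 CPM in the parental library and at 68.4, 105 and 41.7 CPM in clones 1, 5 and 6, while the part of these genes in the results below was not tested. The summed level of the 8 markers was 21.5 CPM in the parental library and 51.8 to 117 CPM in the clones.

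The respiratory chain passes electrons from NADH (complex I) or succinate (complex II) through complex III and the carrier cytochrome c to oxygen at complex IV, and complexes I, III and IV pump protons across the inner mitochondrial membrane. ATP synthase lets the protons back and makes ATP. All complexes but complex II combine subunits encoded in the nucleus with some encoded by mitochondrial DNA, and nitric oxide is known to bind complex IV in competition with oxygen. Promoters of such nuclear genes are known for sites of NRF1, of the ETS factor GABPA and of YY1.

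RefSeq promoter windows (250 bases before to 50 bases after the start, GRCh38.p14) were found for 70 of the 89 genes. The letters GCGCATGC, the core of an NRF1 site, searched on both strands, were in 15 of the 70 (21.4%) and in 3.68% of 27305 genes with such a window. The longer NRF1 palindrome, which contains that core, was in 4 (5.71%) against 1.52%. The ETS letters CCGGAAG were in 21 (30%) against 12.2%, and the YY1 letters AAGATGGC in 12 (17.1%) against 3.52%. The letters TCAAGGTCA of an estrogen-related receptor site were in 1 of the 70 (1.43%) against 0.432%, CCAAT was in 27 (38.6%) against 39.7%, and GGGCGGG in 23 (32.9%) against 36.7%. The median log2 fold change of the clones against the parental library was 0.49 for the 15 tested genes with the NRF1 core and 0.67 for the 53 without it, 0.63 for the 21 with the ETS letters and 0.48 for the 47 without them, and 0.45 for the 12 with the YY1 letters and 0.62 for the 56 without them. It was 0.71 for the 26 tested genes with CCAAT and 0.49 for the 42 without it, and 0.48 for the 23 with GGGCGGG and 0.73 for the 45 without it. These medians are descriptions, and their differences were not tested.

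To show such windows, 60 bases around a match are printed. The match had to lie before the start and outside every exon of the count tables. In the windows printed, all 60 bases lie before the start of the gene. The numbers of eligible genes count such windows, and are not the numbers of all genes with a match upstream. For the NRF1 core 5 genes were eligible, and those with the highest and the lowest log2 fold change among them are shown. For the ETS letters only 2 genes were eligible, and both are shown. No window is printed for the YY1 letters. The choice did not cover every subunit, so the genes shown are not the extremes of the set. NDUFB4 (chr3:120596153-120596212, plus strand) and CYCS (chr7:25125396-25125455, minus strand) hold the NRF1 core, ATP5PD (chr17:75047037-75047096, minus strand) and UQCR11 (chr19:1605526-1605585, minus strand) the ETS letters, and capitals mark the matches on either strand. The sequences are from RefSeq, GRCh38.p14, and run 5′ to 3′ on the strand of the gene. In NDUFB4 the match covers the palindrome and so marks the core on both strands.
NDUFB4: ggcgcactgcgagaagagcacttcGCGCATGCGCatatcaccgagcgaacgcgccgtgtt
CYCS: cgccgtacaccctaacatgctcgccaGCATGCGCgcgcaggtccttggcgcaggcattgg
ATP5PD: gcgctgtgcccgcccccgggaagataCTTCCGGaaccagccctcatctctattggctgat
UQCR11: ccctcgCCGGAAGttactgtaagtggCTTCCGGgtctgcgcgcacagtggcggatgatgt

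The subunit mRNAs lay above the parental level in most cases, by less than 2-fold for the typical gene, and the direction was shared by the clones more than the size. All clones were set against the same parental library, so their directions are not independent of each other. The summed level of the 89 genes was 7291 CPM (scaled by the trimmed mean of M values, TMM) in parental cells, and clone 1 reached 10726 CPM, the library labelled clone 5 reached 9122 CPM and clone 6 reached 11363 CPM, a ratio of 1.47, 1.25 and 1.56. As a share of all counts on genes, this was 0.728% in the parental library and 1.01%, 0.960% and 1.15% in the clones. The clones averaged 10404 ± 1154 CPM (SD, n = 3), and all of them lay above the single parental value. In bulk RNA, cells with more of an mRNA and a larger share of cells that hold it cannot be told apart.

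**Figure D1:**
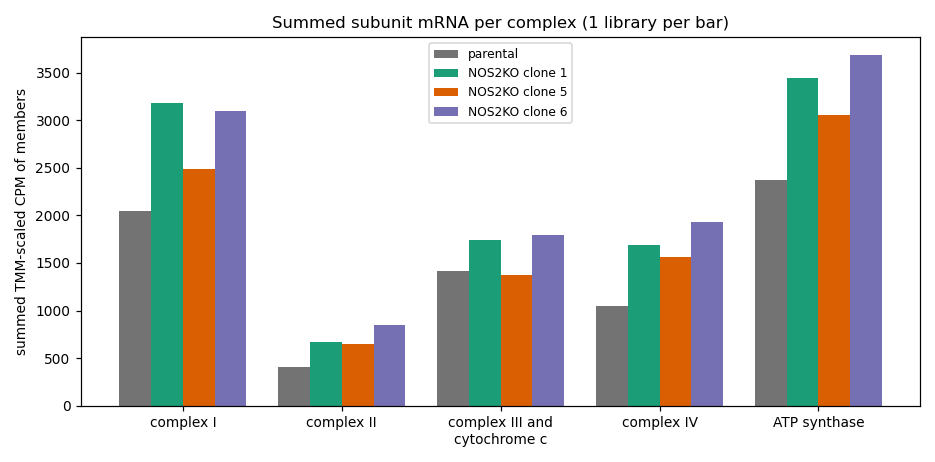
Summed TMM-scaled CPM of the subunit genes of each complex, with 1 bar for the parental library and for each of 3 NOS2KO clones, so that there are no error bars. In complexes I, II, IV and ATP synthase all 3 clones stand above the parental bar, while for complex III with cytochrome c the library labelled clone 5 (1369 CPM) stands just below it (1411 CPM).

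Each gene was then tested with edgeR's quasi-likelihood test, with the spread taken from the 3 clones alone and the Benjamini-Hochberg adjustment over 22511 genes. Of the 89 genes, 85 passed the filter on low counts, and the other 4 (COX4I2, COX6A2, COX8C and ATP5MGL) had at most 3 counts in every library. None of the 85 passed an adjusted p of 0.05 in either direction (0% of all genes tested were called higher and 0.00444% lower), and the smallest adjusted p was 0.332. At an unadjusted p under 0.05, 19 subunits were higher in the clones (4.67% of all genes, and 5.99% of the genes that reached 10 CPM, as all 19 did) and 0 were lower (6.83% of all genes). DESeq2's Wald test on the same counts called 6 subunits higher at an adjusted p under 0.05 (2.47% of all genes) and 0 lower (2.40%). These 6 were ATP5MC3, COX7B2, NDUFA12, COX6B1, NDUFA1 and COX7B.

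Counted by library, all 3 clones lay above the parental library for 66 of the 85 tested subunits (28.6% of all genes tested), and all 3 lay below it for 5 (30.5%). Among the 80 subunits that reached 10 CPM in some library the numbers were 65 above (27.8% of genes at that level) and 4 below (37.3%). The median log2 fold change was 0.63 over the 85 subunits, 0.10 over all genes tested and -0.04 over genes that reached 10 CPM. Subunits more than 1 on the log2 scale above the parental library numbered 24 by clone 1 (16.2% of all genes), 8 by the library labelled clone 5 (20.5%) and 23 by clone 6 (18.4%). More than 1 below it were 0 by clone 1 (19.8%), 0 by the library labelled clone 5 (14.3%) and 1 by clone 6 (16.1%), COX7A1, from 14 counts in parental cells and 4 in the clone. The 95% interval of the ratio to the parental library covers counting error only. This interval lay above 0 in all 3 clones for 62 subunits, and below 0 in all 3 for 4. The share of all genes with such intervals is not given here, so these counts have no background beside them.

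**Figure D2:**
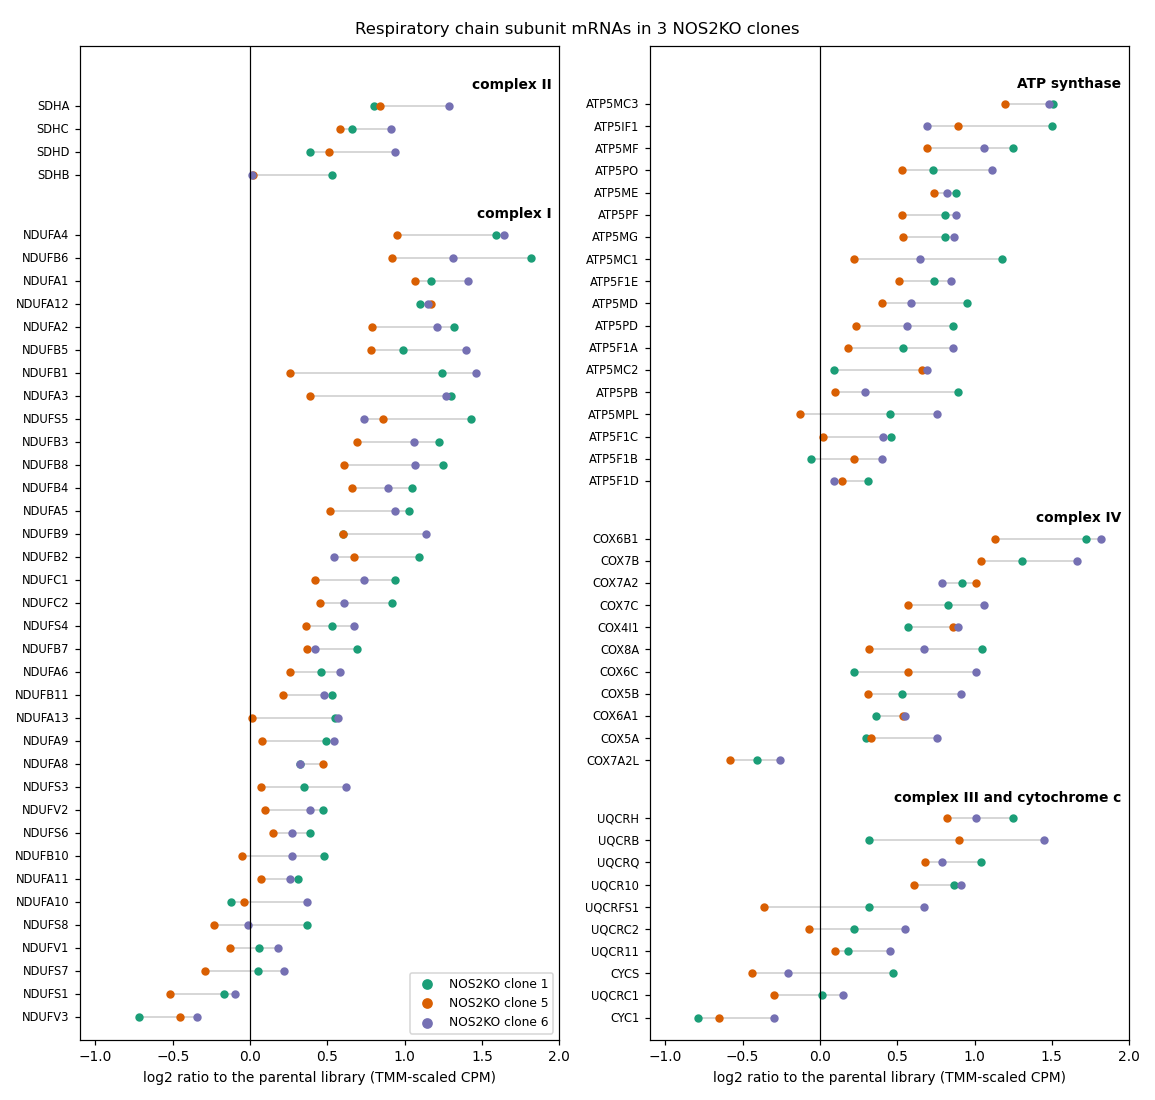
Log2 ratio of each NOS2KO clone to the parental library for subunit genes that reached 10 CPM in some library, by complex, with grey lines joining the 3 clones. Most points stand to the right of 0, the library labelled clone 5 is most often the leftmost, and CYC1, NDUFV3, NDUFS1 and COX7A2L have all points to the left. COX7B2, with log2 ratios of 5.02, 1.74 and 4.18, is beyond the axis and not drawn.

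The library labelled clone 5 was the lowest clone for 59 of the 80 subunits with at least 10 CPM, where it was lowest for 36.3% of genes at that level. Clone 6 was the highest for 43 subunits (27.1% of genes) and clone 1 for 34 (48.8% of genes). Set against parental cells, the subunits had median log2 ratios of 0.60 (clone 1), 0.39 (library labelled clone 5) and 0.69 (clone 6). The closest match among clones was in NDUFA12, where the log2 ratios spanned 0.07, and the widest spread was in COX7B2, where they spanned 3.26.

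Complex I, the NADH dehydrogenase, differed within itself. Its 7 nuclear core subunits, which hold the flavin and iron-sulfur clusters, had a median log2 fold change of 0.07, and its 30 accessory subunits one of 0.75. None of the 7 core subunits and 8 of the 30 accessory subunits (26.7%) were higher at an unadjusted edgeR p under 0.05, against 4.67% of all genes. For the core subunits this is near the share of all genes. All 3 clones lay above the parental library for 3 core subunits (42.9%) and for 26 accessory ones (86.7%), against 28.6% of all genes. The summed level of the core subunits was 654 CPM in the parental library and 719, 578 and 765 CPM in clones 1, 5 and 6, which lay on both sides of it. The accessory subunits summed to 1393 CPM in the parental library and to 2461, 1906 and 2329 CPM in the clones, all above it. The difference between the groups of subunits was not tested. The core subunits had 630 (NDUFS8) to 2223 (NDUFS1) coding bases, and most accessory ones had under 600. The accessory subunits with 600 coding bases or more, NDUFA9, NDUFA10, NDUFA11 and NDUFV3, had log2 fold changes of 0.38, 0.09, 0.22 and -0.49. Core subunits and longer coding sequences thus went together, and the part of length in the difference was not tested.

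Among the core subunits, NDUFV1, which binds the flavin and NADH, was at 203 CPM in the parental library and at 212, 185 and 230 CPM in clones 1, 5 and 6. NDUFS1, the largest iron-sulfur subunit (chromosome 2 from 206114817 to 206159603), was at 123 CPM in the parental library and at 109, 85.5 and 115 CPM in the clones. All 3 clones were thus below the parental value for NDUFS1, with a log2 fold change of -0.25 ± 0.31 (SE), while NDUFV1 was level at 0.04 ± 0.30. NDUFS3, of the peripheral arm, was at 59.1 CPM in the parental library and at 75.3, 61.9 and 91.1 CPM in the clones. All clones lay above the parental library for NDUFS3, but the log2 fold change, 0.36 ± 0.33, was about the size of its error. NDUFS7, which carries the last iron-sulfur cluster before the quinone, was at 83.6 CPM in the parental library and at 86.5, 68.4 and 97.1 CPM in the clones. NDUFS8 was at 96.8 CPM and at 125, 82.6 and 96.3 CPM. NDUFV2, a partner of NDUFV1, was at 17.0 CPM and at 23.5, 18.3 and 22.2 CPM. The clones fell on both sides of the parental library for NDUFS7, NDUFS8 and NDUFV1, and the direction of these 3 genes also depends on the processing. A pseudogene of NDUFV2 held 16.3% of the counts of the pair, and whether reads were split between them was not tested.

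The NDUFB group, subunits of the distal membrane arm, had 11 members with log2 fold changes between 0.25 and 1.40 and a median of 0.88. All 3 clones lay above the parental library for 10 of the 11 (90.9%, against 28.6% of all genes), and NDUFB10 was the exception. NDUFB6 (chromosome 9 from 32552999 to 32573184) was at 16.3 CPM in the parental library and at 57.3, 30.8 and 40.4 CPM in clones 1, 5 and 6. NDUFB5 was at 47.1 CPM and at 93.5, 80.9 and 124 CPM. NDUFB1 was at 20.3 CPM and at 47.9, 24.3 and 55.8 CPM. The clones were all above the parental library in these genes, with the library labelled clone 5 the nearest to it. At an unadjusted p under 0.05 were NDUFB3, NDUFB4, NDUFB5 and NDUFB6 (36.4%, against 4.67% of all genes), with edgeR p between 0.0321 and 0.0392.

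The other 19 accessory subunits had a median of 0.53 and ran from NDUFV3 at -0.49 to NDUFA4 at 1.43. NDUFA4 (ENSG00000189043, chromosome 7 from 10931951 to 10940256) was at 70.5 CPM in the parental library and at 213, 136 and 219 CPM in clones 1, 5 and 6. This is a log2 fold change of 1.43 ± 0.38, with an adjusted p of 0.357 in edgeR and 0.0538 in DESeq2. NDUFA12 (ENSG00000184752, chromosome 12 from 94897055 to 95003770) was at 26.8 CPM in the parental library and at 57.4, 60.3 and 59.5 CPM in the clones. NDUFA1 (ENSG00000125356, chromosome X from 119871487 to 119876662), known to be needed for assembly of the membrane arm, was at 27.7 CPM and at 62.2, 58.3 and 73.9 CPM. For both the clones lay close together and all above 2 times the parental level, with DESeq2 adjusted p of 0.0191 and 0.0297 and an edgeR adjusted p of 0.332 for each. The exons of NDUFA1 overlap those of RNF113A over 44.5% of their length. NDUFA2 was at 33.8 CPM and at 84.4, 58.3 and 78.3 CPM. NDUFS5 was at 124 CPM and at 336, 226 and 208 CPM. The flavoprotein subunit NDUFV3 (chromosome 21 from 42879644 to 42913304) went the other way, with 57.7 CPM in the parental library and 35.0, 42.3 and 45.5 CPM in the clones, all below it, and an unadjusted edgeR p of 0.145. NDUFA7 was low at 1.46 to 2.45 CPM, with 137 counts in the parental library and 281, 156 and 168 in the clones. Its exons overlap other genes over 33.5% of their length.

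Complex II, succinate dehydrogenase, is encoded wholly in the nucleus and also serves the tricarboxylic acid cycle. Its 4 genes summed to 407 CPM in the parental library and to 665, 647 and 847 CPM in clones 1, 5 and 6. All clones lay above the parental library for each of the 4, as for 28.6% of all genes. SDHA, the flavin-bearing catalytic subunit (ENSG00000073578, chromosome 5 from 218241 to 256700), was at 247 CPM in the parental library and at 432, 442 and 604 CPM in the clones. Its log2 fold change was 0.99 ± 0.36, with an unadjusted edgeR p of 0.0490 and an adjusted p of 0.432, and 3.69% of its counts together with those of its pseudogenes were on the pseudogenes. SDHB, the iron-sulfur subunit, was at 66.8 CPM in the parental library and at 96.6, 67.9 and 67.2 CPM in the clones. The membrane anchor SDHC was at 58.3 CPM and at 91.9, 87.2 and 109 CPM. The other anchor, SDHD, was at 34.6 CPM and at 45.3, 49.5 and 66.3 CPM. In SDHB the other clones were within 0.02 of the parental library on the log2 scale, whereas every clone stood apart from it in SDHA, SDHC and SDHD.

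Complex III, the cytochrome bc1 complex, had both the highest and the lowest median among the groups by role. The lowest, at -0.15, came from 2 genes that went opposite ways, CYC1 (-0.56) and UQCRFS1 (0.27). The 6 genes for small subunits of complex III had a median log2 fold change of 0.90. All clones lay above the parental library for each of the 6, as for 28.6% of all genes. UQCRH, the hinge protein (chromosome 1 from 46303631 to 46316776), was at 129 CPM in the parental library and at 305, 227 and 259 CPM in clones 1, 5 and 6. UQCRB, a subunit at the ubiquinone site, was at 71.2 CPM and at 88.9, 133 and 195 CPM. UQCRQ was at 54.3 CPM and at 112, 87.1 and 94.1 CPM. These genes were well above the parental library in all clones except UQCRB in clone 1, where the log2 ratio was 0.32. UQCRH, UQCRQ and UQCR10 had an unadjusted edgeR p of 0.0299, 0.0412 and 0.0452. UQCRHL, whose coding sequence is 98.5% identical to that of UQCRH over 273 bases, was at 2.80 CPM and at 6.91, 5.65 and 6.04 CPM, and reads of the pair may have been split between them.

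The redox subunits and large core proteins of complex III were lower on the scale. They also had longer coding sequences, from 822 bases (UQCRFS1) to 1440 (UQCRC1). The small subunits had 168 (UQCR11) to 483 (UQCRB), and the part of length was not tested. CYC1, which encodes cytochrome c1 (ENSG00000179091, chromosome 8 from 144095027 to 144097525), was at 278 CPM in the parental library and at 161, 178 and 227 CPM in clones 1, 5 and 6. All clones lay below the parental library, with the lowest log2 fold change of the subunits tested, -0.56 ± 0.33, and an unadjusted edgeR p of 0.145. Its log2 ratios were -0.79, -0.65 and -0.30, and the medians of its 50 nearest other genes with at least 10 CPM were -0.57, -0.11 and -0.12. The part of these surroundings was not tested. UQCRFS1, the Rieske iron-sulfur protein, was at 86.0 CPM and at 107, 67.0 and 137 CPM, on both sides of the parental library. UQCRC1 was at 263 CPM and at 265, 213 and 291 CPM. UQCRC2 was at 116 CPM and at 135, 111 and 171 CPM. In both core proteins the library labelled clone 5 lay below the parental library and the others at or above it. CYCS, the mobile cytochrome c, was at 312 CPM in the parental library and at 432, 231 and 270 CPM in the clones, so that clone 1 was above the parental library and the others were below it.

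**Figure D3:**
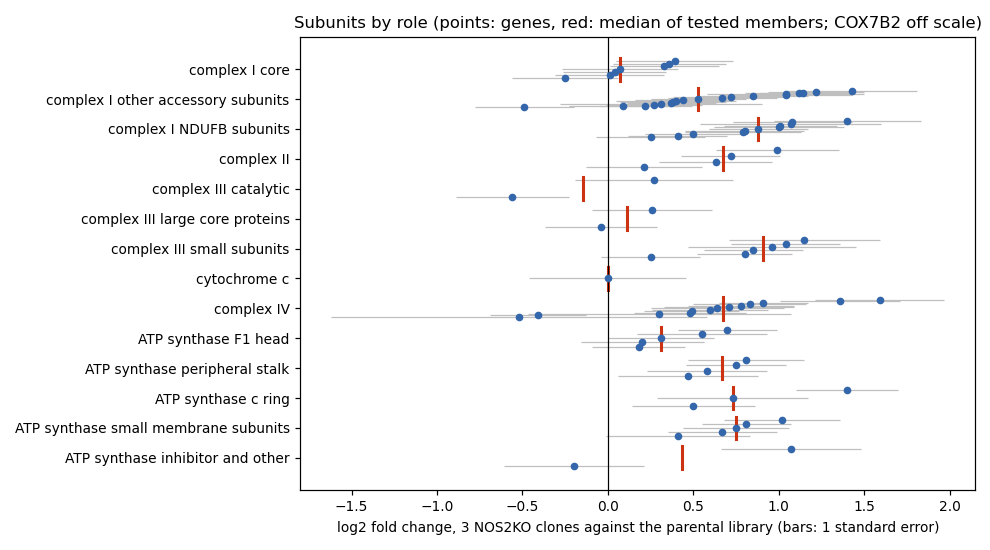
Log2 fold change of the NOS2KO clones against the parental library for the tested subunits by role, with bars of 1 standard error and a red line at the median of each role (COX7B2 is off the scale and counts in the median). The core of complex I (0.07) and the 2 catalytic subunits of complex III (-0.15) stand near or below 0, while the NDUFB group (0.88) and the small subunits of complex III (0.90) stand highest. Roles also differ in coding length, whose part was not tested.

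Complex IV, cytochrome c oxidase, has its catalytic core encoded in mitochondrial DNA and a ring of small nuclear subunits, several of them in versions used in particular tissues. Of its 17 genes 14 were tested, with a median log2 fold change of 0.68. All clones lay above the parental library for 11 of the 14 (78.6%, against 28.6% of all genes). Summed levels were 1052 CPM in the parental library and 1694, 1566 and 1935 CPM in clones 1, 5 and 6. COX6B1, which faces the intermembrane space (ENSG00000126267, chromosome 19 from 35648223 to 35658861), was at 57.4 CPM in the parental library and at 189, 126 and 203 CPM in the clones. Every clone was more than 2 times above the parental library, and the log2 fold change of 1.59 ± 0.38 had an adjusted p of 0.342 in edgeR and 0.0223 in DESeq2. COX7B (ENSG00000131174, chromosome X from 77899438 to 77907373) was at 44.0 CPM in the parental library and at 109, 90.8 and 139 CPM in the clones. COX7A2 was at 44.7 CPM and at 84.5, 90 and 77.6 CPM. COX4I1, the largest nuclear subunit, was at 229 CPM and at 340, 415 and 425 CPM. In each of these genes the clones were all above the parental library. COX5A was at 99.1 CPM and at 122, 124 and 168 CPM. COX6A1 was at 128 CPM and at 164, 187 and 187 CPM. COX8A was at 102 CPM and at 211, 127 and 163 CPM, again above it in all clones, with exons that overlap another gene over 34.5% of their length. The exception in the complex was COX7A2L (chromosome 2 from 42333546 to 42425088), at 115 CPM in the parental library and at 86.5, 76.6 and 95.7 CPM in the clones, all below it.

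COX7B2, a COX7B relative known from testis (ENSG00000170516, chromosome 4 from 46734827 to 46909235), had the largest log2 fold change of the set. Parental cells gave 41 counts (0.454 CPM), clone 1 gave 1684 (14.7 CPM), the library labelled clone 5 gave 162 (1.52 CPM) and clone 6 gave 810 (8.22 CPM). The clones were all above the parental library but far apart, and it met the minimum of 10 CPM through clone 1 alone. The log2 fold change was 4.16 ± 1.23, with an adjusted p of 0.432 in edgeR and 0.0101 in DESeq2. Per kilobase of exon, COX7B2 was at 0.562 CPM in the parental library and at 18.2, 1.88 and 10.2 CPM in the clones, and COX7B at 14.6 CPM in the parental library and at 36.0, 30 and 46.1 CPM in the clones. The coding sequences are 78.8% identical over 240 bases. Thus COX7B2 stayed below COX7B per kilobase in every library.

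The other tissue versions stayed at low levels. COX7A1, the version of heart and skeletal muscle, was counted 14 times in parental cells and 14, 17 and 4 times in clones 1, 5 and 6. COX6B2, known from testis, had 42 counts and 48, 44 and 87. No direction was shared by the clones in either gene. COX4I2 had 0 counts in every library, which allows up to 0.0332 CPM, and COX6A2 and COX8C had at most 3 counts. The versions used broadly, COX4I1, COX6A1, COX6B1, COX7A2 and COX8A, thus gave nearly all counts of their pairs in parental and NOS2KO cells.

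ATP synthase had 20 genes, of which 19 were tested, with a median log2 fold change of 0.67. All clones lay above the parental library for 16 of the 19 (84.2%, against 28.6% of all genes). Summed levels were 2374 CPM in the parental library and 3444, 3055 and 3689 CPM in clones 1, 5 and 6. The 5 genes of the catalytic F1 head had a median of 0.31. ATP5F1B, the catalytic beta subunit was at 868 CPM in the parental library and at 834, 1012 and 1148 CPM in the clones. ATP5F1A, the alpha subunit, was at 231 CPM and at 337, 262 and 419 CPM. ATP5F1D was at 104 CPM and at 130, 115 and 111 CPM. Clone 1 was slightly below the parental library in ATP5F1B, and the clones were otherwise above it in these genes. For ATP5F1D the log2 fold change was 0.18 ± 0.27.

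The c ring, which turns as protons pass, is made from a mature protein that ATP5MC1, ATP5MC2 and ATP5MC3 are known to encode alike. ATP5MC3 (ENSG00000154518, chromosome 2 from 175176258 to 175184607) was at 82.2 CPM in the parental library and at 234, 189 and 229 CPM in clones 1, 5 and 6. All clones were more than 2 times above it, with a log2 fold change of 1.40 ± 0.30, an adjusted p of 0.332 in edgeR and the lowest adjusted p of the subunits in DESeq2, 0.00735. ATP5MC1 was at 47.3 CPM and at 107, 55.0 and 74.2 CPM. ATP5MC2 was at 127 CPM and at 135, 201 and 205 CPM. Clone 1 was the highest of the clones in ATP5MC1 and the lowest in ATP5MC2, so these genes did not share the order of the clones. Per kilobase of exon, ATP5MC2 had the highest level of the 3 in the parental library at 31.8 CPM, against 18.1 CPM for ATP5MC1 and 12.1 CPM for ATP5MC3. In the same order they were at 33.9, 40.9 and 34.5 CPM in clone 1, at 50.3, 21.0 and 27.9 CPM in the library labelled clone 5 and at 51.3, 28.4 and 33.8 CPM in clone 6. ATP5MC2 was thus highest per kilobase in every library but clone 1. The divisor was the total exon length in the count tables, 3991, 2615 and 6780 bases in that order, which need not be the length of the mRNA made. Without it, ATP5MC2 was highest in the parental library and the library labelled clone 5, and ATP5MC3 in clones 1 and 6. Which gene gave the most mRNA was therefore not settled.

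The peripheral stalk, which holds the head still, had 4 genes with log2 fold changes of 0.47 to 0.81. All clones lay above the parental library in each, as for 28.6% of all genes. Of the small membrane subunits 5 were tested, with a median of 0.75. ATP5MF was at 77.5 CPM in the parental library and at 185, 125 and 162 CPM in clones 1, 5 and 6, and ATP5ME, whose exons overlap another gene over 61.6% of their length, at 33.4 CPM and at 61.5, 55.8 and 58.7 CPM. These were the genes of that group with an unadjusted edgeR p under 0.05, at 0.0380 and 0.0313 (40.0% of the 5, against 4.67% of all genes). ATP5IF1, which blocks reverse action of the enzyme, was at 51.4 CPM in the parental library and at 145, 95.5 and 82.6 CPM in the clones, all above it. ATP5S was at 9.97 CPM and at 9.80, 7.23 and 9.03 CPM, all below it.

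Shorter coding sequences went with higher ratios among the subunits. Over the 80 subunits with at least 10 CPM, Spearman's rho of the log2 fold change with coding length was -0.57, and over 10300 other protein-coding genes at that level it was -0.07. These points share the same 4 libraries and are given as a description. The 62 tested subunits with under 600 coding bases had a median log2 fold change of 0.75, and the 23 longer ones had 0.22. All genes at 10 CPM had a median of 0.18 under 600 coding bases and of -0.07 at or above it. The same order was seen in each clone, with rho of -0.59, -0.52 and -0.47 in clones 1, 5 and 6 for the subunits, and -0.15, -0.01 and -0.03 for other genes. SDHA, with 1992 coding bases, was an exception at 0.99, and COX7A2L, with 342, was another at -0.41. When each gene was set against the median of genes of like coding length, the median of all subunits was 0.39. The part of length in these values was not tested further.

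**Figure D4:**
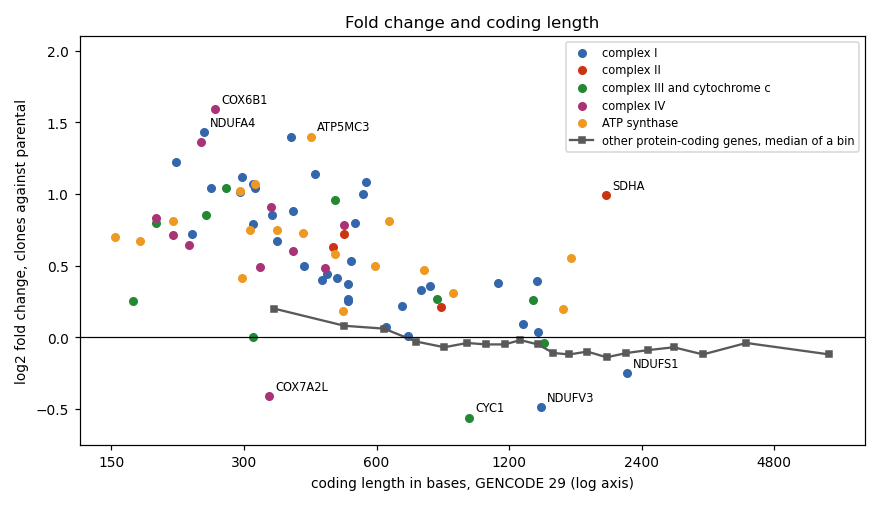
Log2 fold change of the NOS2KO clones against the parental library by coding length on a log axis, for 79 subunit genes with at least 10 CPM (COX7B2 is not drawn) and, as grey squares, the median of other protein-coding genes in 20 bins of coding length. Short subunits lie mostly between 0.5 and 1.5, above the grey line, and the lowest points are CYC1, NDUFV3 and COX7A2L.

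The subunits were also set against their surroundings on the chromosome and against reads that other genes could share. They lie on 22 chromosomes, and 66 of the 80 with at least 10 CPM were above the median of their 50 nearest other genes at that level in all 3 clones. The share of other genes above their own neighbours is not given here, so this count has no background beside it. The median of these neighbour values was -0.05, -0.16 and -0.11 in clones 1, 5 and 6. In clone 1 they ranged from -0.57 to 0.48. On chromosome 8 they were -0.57 for CYC1, -0.56 for COX6C, -0.49 for NDUFB9 and -0.41 for UQCRB in clone 1. The log2 ratios of these genes themselves in clone 1 were -0.79, 0.22, 0.60 and 0.32. Pseudogenes named for the subunits numbered 199 and held 0.280% of the counts of subunits and pseudogenes together. How reads that fit both were counted was not examined, so this share does not measure how many were shared. At least 25% of the exon length overlapped another gene for 12 subunits, and the median of the 74 tested subunits without such overlap was 0.62.

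Genes that assemble or build the chain were compared as lists. The 55 assembly factors that are not subunits had a median log2 fold change of -0.14, with 0 higher and 4 lower (7.27%, against 6.83% of all genes) at an unadjusted p under 0.05. All clones lay above the parental library for 10 of them (18.2%, against 28.6% of all genes) and below it for 20 (36.4%, against 30.5%). The shares of lower genes were thus near those of all genes. COX19, a copper chaperone of complex IV, was at 49.5 CPM in the parental library and at 14.2, 17.0 and 16.8 CPM in clones 1, 5 and 6. NDUFAF2, an assembly factor of complex I, was at 118 CPM and at 48.6, 25.7 and 31.0 CPM. COA7 was at 121 CPM and at 63.1, 44.8 and 37.9 CPM. In these genes and in SCO1, another copper chaperone, the clones were all below the parental library, with log2 fold changes of -1.63, -1.75, -1.31 and -0.98 and adjusted edgeR p of 0.275 to 0.353. ACAD9, at 28 CPM in the parental library and 49.0, 44.0 and 43.5 CPM in the clones, had the highest log2 fold change of the list at 0.70.

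The 13 subunits encoded by mitochondrial DNA all had log2 fold changes above 0, from 0.23 for MT-ND6 to 0.78 for MT-CO3, with a median of 0.41 and none at an unadjusted p under 0.05. Their sum was 13891 CPM in the parental library and 21693, 15782 and 19236 CPM in clones 1, 5 and 6. All clones lay above the parental library for 10 of the 13 (76.9%, against 28.6% of all genes). These transcripts were counted after poly(A) selection, whose part in their level was not tested.

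Of 4 further genes tied to the chain that the name rule leaves out, NDUFA4L2, a relative of NDUFA4 known to respond to low oxygen, was at 7.10 CPM in the parental library and at 0.654, 0.929 and 0.538 CPM in clones 1, 5 and 6. All clones were thus far below parental cells, at a log2 fold change of -3.33 ± 0.59, an unadjusted edgeR p of 0.00183 and an adjusted p of 0.275. HIGD2A, which helps to build supercomplexes, was at 46.3 CPM and at 72.1, 75.5 and 111 CPM. HIGD1A was at 39.5 CPM and at 63.9, 38 and 41.3 CPM, and the acyl carrier NDUFAB1 at 47.1 CPM and at 60.9, 41.2 and 55.6 CPM.

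The 14 regulators of mitochondrial biogenesis had a median of -0.43, with 1 higher and 1 lower (7.14% each, against 4.67% and 6.83% of all genes) at an unadjusted p under 0.05. TFB2M, a mitochondrial transcription factor, was the lower one, at 42.3 CPM in the parental library and at 19.1, 13.5 and 16.2 CPM in clones 1, 5 and 6. The other was ESRRG, with 0 counts in the parental library and at most 0.141 CPM in a clone. PPARGC1A, a coactivator of mitochondrial genes, was at 11.3 CPM in the parental library and at 10.1, 45.1 and 83.3 CPM in the clones. MYC was at 604 CPM and at 672, 129 and 220 CPM. For both genes clone 1 was near the parental level and the other clones were away from it, above for PPARGC1A and below for MYC. NRF1 was at 24 CPM and at 32.6, 15.1 and 16.2 CPM, YY1 at 271 CPM and at 191, 137 and 166 CPM, and GABPA at 37.5 CPM and at 38.9, 40.2 and 50.8 CPM.

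**Figure D5:**
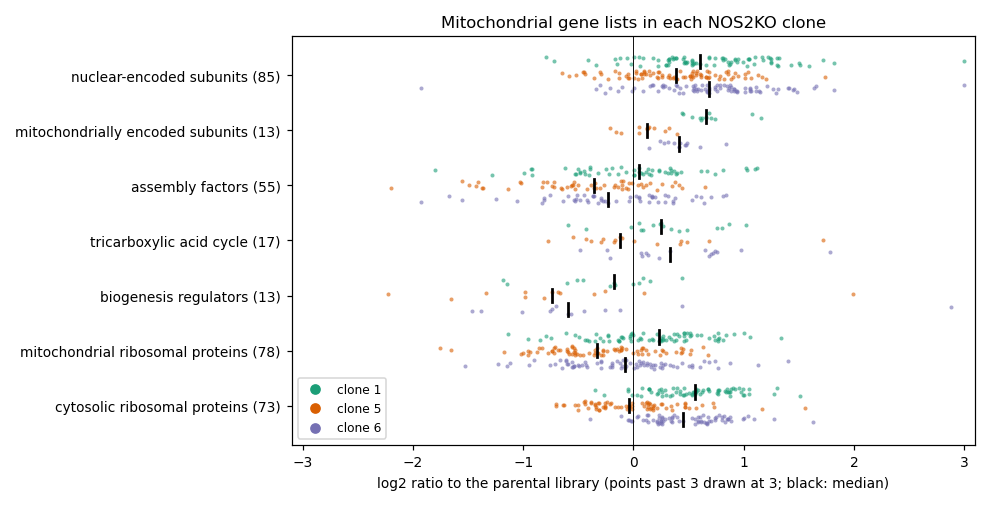
Log2 ratio to the parental library for the genes of 7 lists in each NOS2KO clone, with black marks at the median per clone and points beyond 3 drawn at 3 (ESRRG, at 0 counts in the parental library, is left out). The medians of the nuclear subunits (0.60, 0.39 and 0.69) and the mitochondrially encoded ones (0.66, 0.12 and 0.41) are above 0 in all clones, and those of the assembly factors are 0.05, -0.36 and -0.23.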

How the data were processed

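The authors deposited raw counts per gene for 4 libraries, with exon coordinates and exon lengths and no normalization. The submitters' processing notes name bcl2fastq 2.17, Trimmomatic 0.36, STAR 2.5.2b, featureCounts of Subread 1.5.2, DESeq2 and GRCh38. The strand setting and the annotation release are not given in the sources used here. Poly(A)-selected, fragmented RNA was read as paired ends, so that at equal abundance a longer transcript gives more counts.

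Symbols and coordinates were taken from GENCODE 29 (GRCh38), in which 56898 of the 57500 identifiers had a symbol and 86 of the 89 subunit genes the same start and end. The main test was edgeR 4.0.16 under R 4.3.3 (genes kept by filterByExpr, TMM, estimateDisp, glmQLFit and glmQLFTest with defaults) over 22511 genes, with Benjamini-Hochberg adjustment over all of them. The 3 clones gave the spread (2 residual and 2.75 prior degrees of freedom, common dispersion 0.319), and the parental cells are taken to vary alike. P-values set the difference between the clones and the parental library against the spread between these clones, and hold no spread among parental cultures. The SE of a log2 fold change came from the fit. CPM values are relative to TMM-scaled library sizes. Ratios of single clones carry exact Clopper-Pearson 95% intervals, which, like the floor, cover counting error only. The scripts were tested on simulated data. Other steps used Python 3.11.15 and scipy 1.17.1.

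The members and lists were chosen with earlier results of these data known, and no list was tested as a set. By rule, every library's value is given for the core subunits of complex I, the SDH genes, the extremes of each complex at 10 CPM or more, members that differ most among clones, tissue versions, CYC1 and CYCS, and other genes were named after their values were seen. The values of 1 core subunit are not reported here. Alternatives were RLE, upper quartile and total count scaling, no filter or 1 CPM, DESeq2 1.42.0, robust and bias-adjusted fits, each clone left out, protein-coding genes only, centring on exon length, mean log2 ratios and another membership. Centring on coding length and leaving out genes with exon overlap were added after the data were seen.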

Additional observations from a re-analysis of the deposited data

How the results depend on the processing

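The count of subunits at an adjusted p under 0.05 was 0 under every edgeR setting and 6 under DESeq2's Wald test, where ATP5MC3, COX6B1, COX7B and COX7B2 had log2 fold changes of 1.43, 1.61, 1.38 and 4.19. Centred on exon length, the median log2 fold change was 0.27 for complex I and 0.43 for complex IV. Centred on coding length, an alternative chosen after the data were seen, it was 0.34 for complex I, 0.35 for complex IV and 0.42 for ATP synthase. Leaving out each clone in turn gave medians of 0.43 to 0.58 for complex I, 0.54 to 0.76 for complex II, 0.14 to 0.52 for complex III with cytochrome c, 0.58 to 0.76 for complex IV and 0.56 to 0.80 for ATP synthase. For complex III the value was 0.14 without clone 6 and 0.52 without the library labelled clone 5.

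Of the named subunits, 7 changed sign, each with a log2 fold change smaller than its SE. ATP5F1D was at -0.01 centred on exon length. Centred on coding length, COX6B2 was at -0.03, NDUFS7 at -0.08 and NDUFS8 at -0.02. NDUFS7 was at -0.01 as a mean of log2 ratios, and UQCRC1 at 0.07 under upper quartile scaling. CYCS, at -0.00 in the reported fit, was at 0.02 under RLE scaling, DESeq2 and protein-coding genes only, 0.09 under upper quartile scaling, 0.01 without the filter and 0.03 at a minimum of 1 CPM. Leaving out each clone in turn gave -0.11 to 0.16 for NDUFS7, -0.11 to 0.22 for NDUFS8, -0.16 to 0.51 for COX6B2, -0.13 to 0.10 for UQCRC1 and -0.31 to 0.19 for CYCS. The sign turned without clone 1 for NDUFS7 and NDUFS8, without clone 6 for COX6B2, NDUFS7 and NDUFV1 (-0.03), without the library labelled clone 5 for UQCRC1 and CYCS, and without clone 6 for CYCS (0.09). The cause was not tested. Of the other values of named subunits, 529 kept their direction, or lay at 0 to 2 decimals, and their side of the threshold. The median of all genes was 0.10, and 0.20 under upper quartile scaling and 0.31 without the filter, where the subunits were at 0.74 and 0.65. No paired analysis was possible because the parental group has 1 library, so the groups share fewer than 2 replicate numbers. Counting error was small for the abundant subunits, and the spread among parental cultures could not be measured.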

Other observations

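The tricarboxylic acid cycle, which feeds complexes I and II, had 17 genes with a median log2 fold change of 0.14, of which 2 were higher (11.8%, against 4.67% of all genes) and 0 lower (6.83% of all genes) at an unadjusted p under 0.05 in edgeR. IDH2, the mitochondrial NADP-dependent isocitrate dehydrogenase, was at 56.5 CPM in the parental library and at 103, 186 and 194 CPM in clones 1, 5 and 6, with a log2 fold change of 1.51 ± 0.45 and an adjusted p of 0.381. OGDH, of the 2-oxoglutarate dehydrogenase complex, was at 128 CPM and at 260, 207 and 253 CPM, with an adjusted p of 0.409. All clones lay above the parental library for both genes. The lowest of the list was SUCLA2, a subunit of succinyl-CoA synthetase, at 34.8 CPM and at 25.8, 20.5 and 25 CPM.

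Ribosomal proteins were added as a further pair of lists after the data were seen, since many of them are also short. The 78 mitochondrial ribosomal proteins tested had a median log2 fold change of -0.03, with 1 higher (1.28%) and 4 lower (5.13%) at an unadjusted p under 0.05, and the 73 cytosolic ones tested had 0.31, with 3 higher (4.11%) and 0 lower. These shares were at or under those of all genes, 4.67% higher and 6.83% lower. The medians per clone were 0.23, -0.33 and -0.08 for the mitochondrial ribosomal proteins and 0.56, -0.04 and 0.45 for the cytosolic ones. Of the cytosolic ones, 33 had all clones above the parental library (45.2%, against 28.6% of all genes) and 2 all below it (2.74%, against 30.5%). For the mitochondrial ones the numbers were 20 (25.6%) and 28 (35.9%). In clones 1 and 6 the respiratory subunits were at medians of 0.60 and 0.69, against 0.56 and 0.45 for the cytosolic ribosomal proteins. In the library labelled clone 5 the respiratory subunits were at 0.39, while both lists of ribosomal proteins were below 0. Genes that reached 10 CPM were at -0.13 there.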
